A study of Homo sapiens with 12 samples.

Results

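Transcripts of 101 genes named for the mitotic spindle, the kinetochore, the structural maintenance of chromosomes (SMC) complexes and the kinesin motors were followed in SK-N-BE(2) cells, a MYCN-amplified neuroblastoma line, out of 14884 genes in all. The 101 were chosen by gene symbol alone (symbol families such as KIF, CENP, AURK, PLK, BUB, CDC25 and SMC), with no threshold on any measured value. They lay on 104 transcript clusters of the Affymetrix Human Gene 2.0 ST array, a cluster being the probes assigned to 1 transcribed locus, and the brightest cluster on average stood for each gene. For 6 h the cells had received vehicle, JQ1 at 1 µM, panobinostat at 10 nM or both together, with 3 arrays in each of the 4 groups. JQ1 displaces the BET proteins, readers of acetylated histones, from chromatin, and panobinostat inhibits histone deacetylases. All groups were the same line in the same serum-supplemented medium, and what the vehicle was is not given in the sources used here. Whether replicates were separate cultures is not in the labels, so the p-values speak of the spread among these arrays alone, and it may be technical. The symbol rule also covers the NCAP condensin subunits, NUF2, SPC24, SPC25, CENPE, CENPF, TPX2, TACC3 and ANLN, but no cluster was named for them in the probe table, and they were not analysed here.

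Passage through mitosis is driven by CDK1 bound to cyclins A and B, helped by the polo-like and Aurora kinases, while the CDC25 phosphatases remove the inhibitory phosphates from CDK1. Kinetochores assemble on centromeric chromatin and hold spindle microtubules, the spindle checkpoint delays anaphase until every kinetochore is attached, and condensin and cohesin shape and pair the chromosomes. Most of these genes are transcribed in a wave that peaks in G2 and mitosis under FOXM1 and the MuvB complexes, which bind a promoter element called the CHR. In a mixed culture a lower signal can mean less RNA per cell or fewer cells in G2 and mitosis, and bulk arrays cannot tell these apart.

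The deposited values ran from 1.39 to 14.10 and were read as log2 signal. Arrays correlated at 0.991 to 0.995 within groups and 0.962 to 0.989 between groups over the 14884 genes. Array medians over all clusters were 6.12 to 6.22 for vehicle and 6.19 to 6.29 for panobinostat, with vehicle 1 lowest and panobinostat 1 highest of the 12, and calls that were lost when the arrays were rescaled or these arrays were left out are named beside the results below. Of 9 markers of sympathetic neuroblasts, 7 had a named cluster, and all 7 lay between the 81.8 and 98.2 percentile of mean signal. Of the stromal markers only THY1 (percentile 78.1) and DCN (25.1) and of the leukocyte markers only CD14 (30.1) had one. Their level over background is not known without detection calls. With the combination 7 of the 7 neuroblast markers were lower and 0 higher (median -0.82), and with panobinostat 6 and 0 (median -0.42), and their part in the members' changes was not tested. Of the members, PLK1, CCNB1, AURKA, NDC80 and FOXM1 lay between the 77.3 and 98.7 percentile.

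The 101 genes fall into unlike kinds, and 72 of them fall under a mitotic or chromosomal role, including the pseudogene CENPBD2P. These are 16 genes grouped as G2/M regulators, 10 checkpoint and anaphase genes, 22 centromere and kinetochore genes, 2 condensin ATPases, 5 genes of cohesin and the SMC5/6 complex, 4 spindle and cytokinesis proteins and 13 mitotic kinesins. The first group takes in every measured PLK and AURK gene, PLK2, PLK3, PLK4, PLK5 and AURKC included. The second takes in MAD2L2, so neither group is purely of its named role. A further 27 are mostly kinesins of axonal and vesicle transport, of cilia or of unsettled role, with 1 antisense RNA among them. KIF2A, a depolymerase like the mitotic kinesin KIF2C, was also counted here. The remaining 2 are CKAP4, a membrane protein of the endoplasmic reticulum, and SMC5-DT, a noncoding RNA divergent from SMC5.

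Each compound was compared with vehicle to find which of these transcripts respond within 6 h. With panobinostat 9 of 16 G2/M regulators, 8 of 22 centromere and kinetochore genes and 6 of 13 mitotic kinesins were lower, and with both compounds 9, 7 and 8 were, by up to 1.87-fold. With JQ1 alone 2, 2 and 2 were lower. CDK1 was called in none of the comparisons with vehicle. Calls rest on limma, a linear model with a moderated variance, at a Benjamini-Hochberg adjusted p under 0.05 over all 14884 genes. Changes are log2 differences ± SE with n = 3 arrays per group. With JQ1, 22 of 101 members were called, 8 higher and 14 lower. Of all genes 17.6% were called with JQ1, 8.18% higher and 9.47% lower. The members' count called higher lay near that background, and their count called lower was above it by few genes. With panobinostat, 52 members were called, 15 higher and 37 lower, against 29.3% of all genes, 14.5% higher and 14.8% lower. With the combination, 60 were called, 21 higher and 39 lower, against 37.7% of all genes, 18.2% higher and 19.5% lower. For panobinostat and the combination the members' share called lower was further above the background, and their share called higher was near it.

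The median member change was -0.01 with JQ1, -0.07 with panobinostat and -0.08 with the combination, against 0.01, 0.03 and 0.02 over all genes. Among the 72 genes with a mitotic or chromosomal role the medians were 0.01, -0.16 and -0.12, and 30 were called lower with panobinostat against 8 higher. The JQ1 arrays lay wholly below the vehicle arrays for 29 members and wholly above for 19, where 16.9% and 16.6% of all genes did so. Panobinostat arrays lay wholly below for 42 members and above for 16, against 19.9% of all genes in each direction. Combination arrays lay wholly below for 47 and above for 22, against 23.5% and 22.6%. The mean signal of the 72 genes was 9.74 to 9.84 on vehicle arrays, 9.77 to 9.80 on JQ1 arrays, 9.60 to 9.68 on panobinostat arrays and 9.60 to 9.66 on combination arrays. The JQ1 and vehicle ranges overlapped, and all 6 arrays with panobinostat lay below all 6 without it.

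Leaving out each of the 12 arrays in turn, 41 of the 52 panobinostat calls and 51 of the 60 combination calls passed in every fit, but only 8 of 22 JQ1 calls did. These JQ1 calls were PLK3, CENPN and CKAP2, higher, and BUB1B, CENPK, KIF14, KIF26B and SMC1B, lower. The JQ1 count of 22 was 13 without JQ1 1, 12 without JQ1 2, 12 without JQ1 3 and 12 without vehicle 2.

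**Figure D1:**
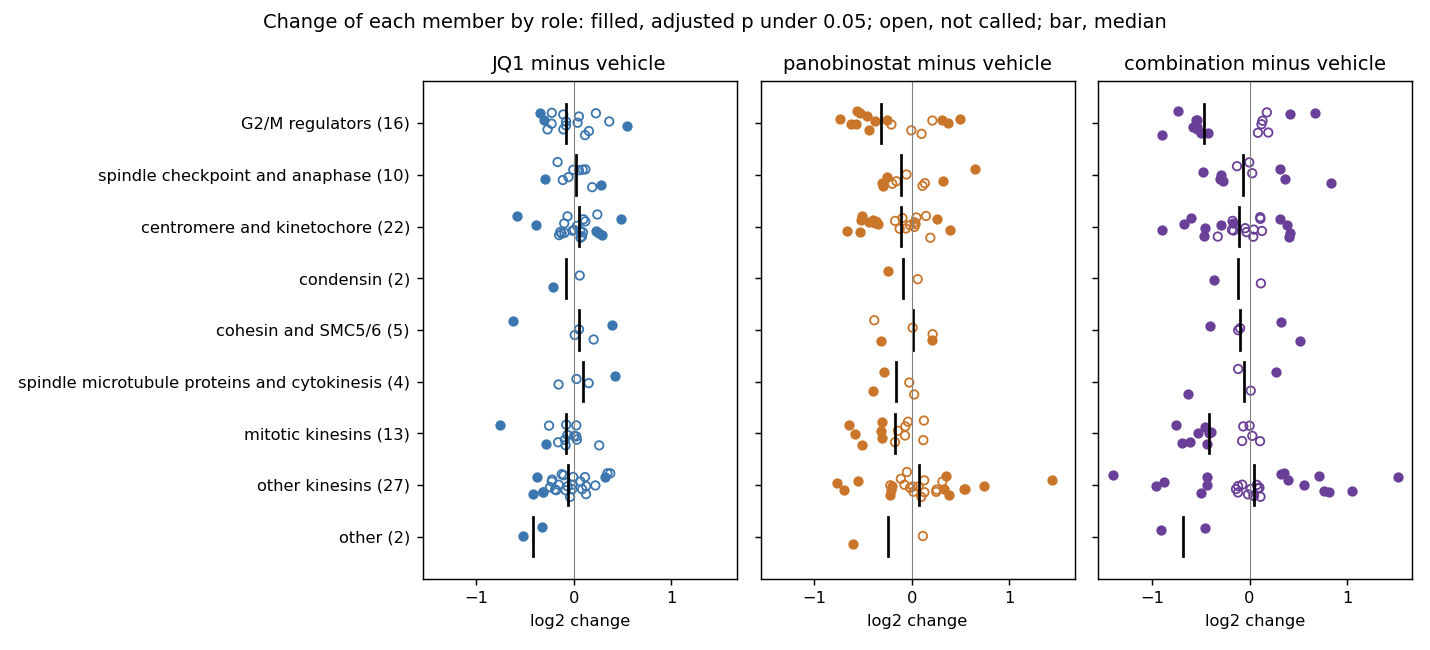
Log2 change of each of the 101 members (x axis) by role (y axis, number of genes in brackets) with JQ1, panobinostat and the combination, each against vehicle; filled points passed an adjusted p under 0.05 in limma, open points did not, and the bar is the median. The median of the G2/M regulators lies at -0.08, -0.31 and -0.46 in the 3 panels, while the other kinesins spread to both sides.

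The group of G2/M regulators had the lowest median of the roles with over 2 genes, with panobinostat and with the combination. Of 16 genes, 9 were lower and 3 higher with panobinostat (median -0.31), 9 lower and 2 higher with the combination (median -0.46), and 2 lower and 1 higher with JQ1. Beside the shares of all genes given above, the counts called lower with panobinostat and the combination were above background. The other counts were near or below it. PLK1 (cluster 16817017), the polo-like kinase of mitotic entry and spindle assembly, read 11.85, 12.09 and 11.91 with vehicle, 11.66, 11.83 and 11.68 with JQ1, 11.36, 11.26 and 11.05 with panobinostat and 11.09, 11.12 and 10.94 with the combination. Every array with panobinostat lay below every array without it, and JQ1 arrays lay below vehicle arrays by less. The PLK1 change was -0.73 ± 0.10 (adjusted p = 0.000182) with panobinostat and -0.90 ± 0.10 (adjusted p = 1.67e-05) with the combination, a 1.87-fold fall, and -0.23 with JQ1, which did not pass (adjusted p = 0.145). CCNB1 (cluster 16985599), which encodes cyclin B1, the mitotic partner of CDK1, read 10.52, 10.43 and 10.41 with vehicle, 10.22, 10.32 and 10.14 with JQ1, 9.74, 9.94 and 9.83 with panobinostat and 9.87, 9.91 and 9.86 with the combination. The panobinostat and combination arrays of CCNB1 overlapped each other and lay below the rest. Its change was -0.62 ± 0.07 with panobinostat, -0.58 ± 0.07 with the combination and -0.22 with JQ1 (adjusted p = 0.0568). AURKA (cluster 16920548), the Aurora kinase of centrosomes and spindle poles, read 9.23, 9.40 and 9.16 with vehicle, 8.86, 8.92 and 8.98 with JQ1, 8.73, 8.75 and 8.61 with panobinostat and 8.63, 8.39 and 8.57 with the combination. The vehicle arrays were highest, JQ1 arrays lay between, and panobinostat and combination arrays overlapped at the bottom. AURKA fell by 0.34, 0.57 and 0.73 on the log2 scale with JQ1, panobinostat and the combination (adjusted p = 0.0173, 0.000449 and 3.46e-05). FOXM1 (cluster 16760048), the transcription factor of the G2/M gene wave, read 10.96, 10.88 and 10.74 with vehicle, 10.51, 10.62 and 10.52 with JQ1, 10.44, 10.54 and 10.47 with panobinostat and 10.35, 10.44 and 10.30 with the combination. All treated arrays of FOXM1 lay below all vehicle arrays, with changes of -0.31 ± 0.07, -0.38 ± 0.07 and -0.50 ± 0.07.

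CCNA2 and CCNB2, which encode cyclins A2 and B2, changed by -0.56 and -0.45 with panobinostat and -0.54 and -0.54 with the combination, against -0.08 for each with JQ1 (adjusted p = 0.524 and 0.514). Among the phosphatases that activate CDK1, CDC25A (-0.44 and -0.54) and CDC25B (-0.25 and -0.54) fell with panobinostat and the combination, whereas CDC25C was higher with panobinostat at 0.31 ± 0.08 (adjusted p = 0.0152) and at 0.18 with the combination (adjusted p = 0.130). PLK4, the kinase of centriole duplication, fell by 0.53 and 0.43 in the same comparisons. CDK1 itself was at 0.23, 0.10 and 0.09 (adjusted p = 0.115, 0.460 and 0.517), and AURKB, the kinase of the chromosomal passenger complex, at 0.12 with the combination (adjusted p = 0.167; 95% interval -0.02 to 0.26). PLK3 and PLK2, the stress-responsive polo-like kinases, went the other way. PLK3 (cluster 16664005) read 7.79, 7.58 and 7.76 with vehicle, 8.28, 8.18 and 8.30 with JQ1, 8.10, 8.01 and 8.12 with panobinostat and 8.28, 8.40 and 8.46 with the combination. All treated arrays lay above all vehicle arrays of PLK3, and its change was 0.54 ± 0.08 (adjusted p = 0.000612) with JQ1, 0.37 ± 0.08 (adjusted p = 0.00380) with panobinostat and 0.67 ± 0.08 (adjusted p = 2.96e-05) with the combination. PLK2 was at 0.50 ± 0.13 (adjusted p = 0.0127) with panobinostat and 0.41 ± 0.13 (adjusted p = 0.0258) with the combination, although its vehicle and combination arrays overlapped. AURKA lost its JQ1 call without any 1 of JQ1 1, vehicle 2 and JQ1 2 (-0.34 to -0.27). FOXM1 lost its JQ1 call without JQ1 1 (-0.29), and also without vehicle 1 and panobinostat 1 together or with these groups fitted alone (-0.31 to -0.26). CDC25B lost its panobinostat call without vehicle 2 (-0.22) or without panobinostat 3 (-0.22), and also with these groups fitted alone (-0.25). CDC25C lost its panobinostat call without vehicle 3 (0.25) or without panobinostat 3 (0.27), and also after median centring or with these groups fitted alone (0.26 to 0.31). PLK2 lost its panobinostat call without vehicle 1 (0.42) or without panobinostat 3 (0.44), and also without vehicle 1 and panobinostat 1 together (0.43). PLK2 lost its combination call without any 1 of vehicle 1, combination 1, vehicle 2 and combination 3 (0.33 to 0.38), and also without vehicle 1 and panobinostat 1 together (0.33).

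**Figure D2:**
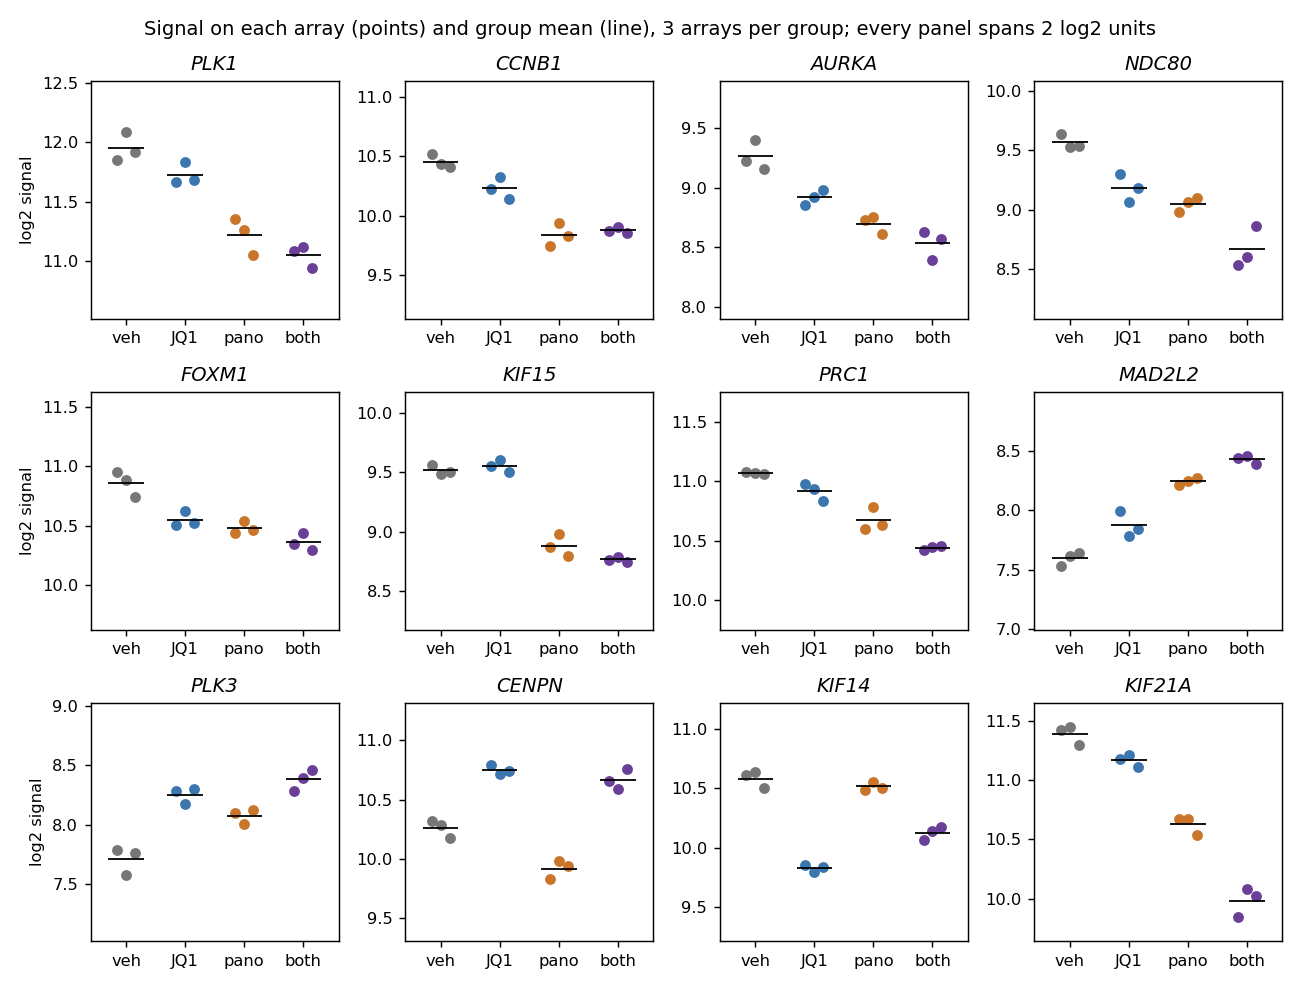
Log2 signal (y axis, 2 log2 units in every panel) of 12 members on each array (points, in replicate order) for vehicle (veh), JQ1, panobinostat (pano) and both compounds (both), with the group mean as a line. PLK1 falls from a mean of 11.95 with vehicle to 11.05 with both compounds, MAD2L2 and PLK3 rise, and CENPN and KIF14 follow JQ1 rather than the shared order.

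The checkpoint genes were called in both directions. Of 10 genes, 3 were lower and 2 higher with panobinostat, 4 lower and 3 higher with the combination, and 1 lower and 1 higher with JQ1. Of all genes 14.8% were lower and 14.5% higher with panobinostat, 19.5% and 18.2% with the combination, and 9.47% and 8.18% with JQ1. So few checkpoint genes cannot be set apart from these shares. MAD2L2 (cluster 16681749), which despite its name encodes REV7, a subunit of the translesion polymerase zeta and of shieldin, read 7.53, 7.61 and 7.64 with vehicle, 8.00, 7.79 and 7.84 with JQ1, 8.22, 8.25 and 8.27 with panobinostat and 8.44, 8.46 and 8.39 with the combination. The 4 groups of MAD2L2 did not overlap one another and stood in the order vehicle, JQ1, panobinostat, combination. It was higher by 0.28 ± 0.07, 0.65 ± 0.07 and 0.83 ± 0.07, which is 1.78-fold with the combination (adjusted p = 2.04e-06). BUB1B (cluster 16799426), which encodes the checkpoint protein BubR1, read 9.50, 9.56 and 9.49 with vehicle, 9.24, 9.25 and 9.18 with JQ1, 9.21, 9.26 and 9.32 with panobinostat and 9.11, 9.03 and 8.98 with the combination. Vehicle arrays of BUB1B were highest and combination arrays lowest, without overlap. Its change was -0.29 ± 0.06 (adjusted p = 0.00782), -0.25 ± 0.06 (adjusted p = 0.0100) and -0.47 ± 0.06 (adjusted p = 8.70e-05). BUB3 (-0.30 ± 0.06), the partner of BUB1 and BubR1, and ESPL1 (-0.29 ± 0.08), the separase that cleaves cohesin, were lower with the combination, as was MAD2L1 (-0.27 ± 0.08), which encodes MAD2. BUB1, a checkpoint kinase, was higher at 0.32 ± 0.07, and so was MAD1L1 (0.36 ± 0.07), which recruits MAD2 to kinetochores. CDC20, the activator of the anaphase-promoting complex, was lower with panobinostat (-0.29 ± 0.07) and at -0.13 with the combination (adjusted p = 0.160). TTK, the checkpoint kinase MPS1, was at -0.05 and 0.03 and not called (adjusted p = 0.576 and 0.773). MAD2L2 lost its JQ1 call without vehicle 1 (0.25) or without JQ1 1 (0.22), and also without vehicle 1 and panobinostat 1 together or with these groups fitted alone (0.25 to 0.28). BUB1B lost its panobinostat call after quantile normalization or without vehicle 1 and panobinostat 1 together (-0.24 to -0.20). MAD2L1 lost its combination call without vehicle 1 (-0.22) or without combination 1 (-0.24).

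Centromere and kinetochore genes were called in both directions. Of 22 genes, 8 were lower and 2 higher with panobinostat, 7 lower and 4 higher with the combination, and 2 lower and 3 higher with JQ1. Read against the shares of all genes given above, the counts called lower with panobinostat and the combination were above background, whereas those called higher in these comparisons were near or below it, and the JQ1 counts are too few to set apart from it. The counts include CENPBD2P, a transcribed pseudogene matched by its symbol, which was lower with panobinostat (-0.39 ± 0.09 (adjusted p = 0.00547)). NDC80 (cluster 16850517), the outer kinetochore protein that grips microtubules, read 9.63, 9.53 and 9.54 with vehicle, 9.30, 9.06 and 9.19 with JQ1, 8.98, 9.07 and 9.10 with panobinostat and 8.53, 8.60 and 8.86 with the combination. Vehicle arrays were highest, combination arrays lowest, and the JQ1 and panobinostat arrays overlapped between them. It changed by -0.38 ± 0.09 (adjusted p = 0.0140), -0.52 ± 0.09 (adjusted p = 0.00129) and -0.90 ± 0.09 (adjusted p = 1.14e-05), a 1.87-fold fall with the combination. CENPV (cluster 16841768), a centromere and microtubule-associated protein, read 11.33, 11.31 and 11.29 with vehicle, 11.19, 11.17 and 11.12 with JQ1, 10.68, 10.64 and 10.64 with panobinostat and 10.67, 10.61 and 10.65 with the combination. The 6 arrays with panobinostat lay well below the 6 without, whether or not JQ1 was present. The CENPV change was -0.66 ± 0.06 with panobinostat and -0.67 ± 0.06 with the combination, and -0.15 with JQ1 (adjusted p = 0.0935). CENPA, the histone H3 variant that marks centromeres, was lower at -0.38 and -0.29, and CENPO (-0.53 and -0.46) and CENPL (-0.51 and -0.60) of the inner kinetochore fell likewise. CENPI of the same network was higher (0.40 and 0.31). CENPX (cluster 16850063), a histone-fold protein of kinetochores and of the Fanconi anaemia pathway, read 10.32, 10.27 and 10.25 with vehicle, 10.54, 10.45 and 10.52 with JQ1, 10.58, 10.44 and 10.59 with panobinostat and 10.71, 10.69 and 10.68 with the combination. All treated arrays of CENPX lay above vehicle, at 0.22 ± 0.06, 0.26 ± 0.06 and 0.41 ± 0.06. KNL1, the scaffold on which checkpoint proteins assemble, was higher with the combination at 0.38 ± 0.09 (adjusted p = 0.00400). NDC80 lost its JQ1 call without JQ1 2 (-0.32), and also without vehicle 1 and panobinostat 1 together (-0.35). CENPX lost its JQ1 call without any 1 of JQ1 1, vehicle 2, vehicle 3 and JQ1 3 (0.21 to 0.22), and also after median centring or with these groups fitted alone (0.22 to 0.23). CENPX lost its panobinostat call after median centring or with these groups fitted alone (0.21 to 0.26). CENPI lost its combination call without any 1 of vehicle 2, vehicle 3 and combination 3 (0.25 to 0.27), and also after median centring (0.27).

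CENPN and CENPK departed from this order. CENPN (cluster 16821239), which recognises CENP-A nucleosomes and was singled out after its values were seen, read 10.32, 10.29 and 10.17 with vehicle, 10.79, 10.71 and 10.74 with JQ1, 9.83, 9.98 and 9.94 with panobinostat and 10.66, 10.59 and 10.75 with the combination. JQ1 and combination arrays overlapped above vehicle, and panobinostat arrays lay below it. Its change was 0.49 ± 0.07 (adjusted p = 0.000669) with JQ1, -0.34 ± 0.07 (adjusted p = 0.00330) with panobinostat and 0.41 ± 0.07 (adjusted p = 0.000627) with the combination, and panobinostat differed from JQ1 by -0.83 ± 0.07 (adjusted p = 1.99e-05). CENPK (cluster 16996722), a subunit of the inner kinetochore, read 9.38, 8.93 and 8.87 with vehicle, 8.47, 8.53 and 8.43 with JQ1, 8.81, 9.12 and 8.88 with panobinostat and 8.42, 8.70 and 8.70 with the combination. JQ1 and combination arrays overlapped each other below vehicle, and panobinostat and vehicle arrays overlapped. CENPK changed by -0.58 ± 0.13 (adjusted p = 0.0103) with JQ1, -0.12 with panobinostat (adjusted p = 0.557) and -0.45 ± 0.13 (adjusted p = 0.0184) with the combination. CENPK lost its combination call without vehicle 1 (-0.29) or without combination 1 (-0.36), and also without vehicle 1 and panobinostat 1 together or with these groups fitted alone (-0.45 to -0.29).

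Of the 2 condensin and 5 cohesin and SMC5/6 genes, SMC2 was lower with every treatment, SMC5 and SMC6 were higher with the combination, and SMC1B was lower with JQ1 and with the combination. SMC2 (cluster 17087716), an ATPase of condensin, read 10.97, 11.02 and 10.96 with vehicle, 10.79, 10.78 and 10.76 with JQ1, 10.77, 10.72 and 10.75 with panobinostat and 10.62, 10.65 and 10.61 with the combination. The treated arrays lay below vehicle without overlap, by -0.21 ± 0.06, -0.24 ± 0.06 and -0.36 ± 0.06. Its partner SMC4 was at 0.06, 0.06 and 0.12 (adjusted p = 0.611, 0.536 and 0.197), so the condensin ATPases did not share a call. Of the cohesin ATPases, SMC1A was lower with panobinostat (-0.31 ± 0.07, adjusted p = 0.00741) and at -0.12 with the combination (adjusted p = 0.262), and SMC3 was at 0.01 and -0.10 (adjusted p = 0.922 and 0.248). SMC5 (cluster 17085779), of the SMC5/6 DNA repair complex, read 9.48, 9.13 and 9.22 with vehicle, 9.75, 9.65 and 9.60 with JQ1, 9.25, 9.56 and 9.67 with panobinostat and 9.73, 9.84 and 9.84 with the combination. JQ1 and combination arrays of SMC5 lay above vehicle, at 0.39 ± 0.12 (adjusted p = 0.0382) and 0.52 ± 0.12 (adjusted p = 0.00337), and the panobinostat value of 0.22 did not pass (adjusted p = 0.198). SMC6 was higher with the combination by 0.32 ± 0.07 (adjusted p = 0.00219). SMC5-DT (cluster 17094755), transcribed away from SMC5, read 7.31, 7.18 and 7.07 with vehicle, 6.89, 6.43 and 6.70 with JQ1, 7.00, 7.53 and 7.38 with panobinostat and 6.63, 6.64 and 6.91 with the combination. Its JQ1 and combination arrays lay below vehicle, the opposite side to SMC5, at -0.52 ± 0.15 (adjusted p = 0.0333) and -0.46 ± 0.15 (adjusted p = 0.0285). SMC1B (cluster 16935994), the meiotic cohesin subunit, lay at the 11.6 percentile of mean signal and read 5.48, 5.45 and 5.49 with vehicle, 5.10, 4.76 and 4.70 with JQ1, 4.89, 5.19 and 5.18 with panobinostat and 5.04, 5.31 and 4.85 with the combination. All treated arrays of SMC1B lay below vehicle, at -0.62 ± 0.13 (adjusted p = 0.00744), -0.38 ± 0.13 (adjusted p = 0.0508) and -0.41 ± 0.13 (adjusted p = 0.0310). SMC2 lost its JQ1 call without any 1 of JQ1 1, vehicle 2, JQ1 2 and JQ1 3 (-0.22 to -0.20), and also after median centring or with these groups fitted alone (-0.21). SMC1A lost its panobinostat call without vehicle 1 and panobinostat 1 together (-0.23). SMC5 lost its JQ1 call without any 1 of JQ1 1, vehicle 2, JQ1 2, combination 2, vehicle 3, JQ1 3 and combination 3 (0.31 to 0.42), and also after median centring or with these groups fitted alone (0.39). SMC5-DT lost its JQ1 call without any 1 of vehicle 1, vehicle 2, JQ1 2 and JQ1 3 (-0.53 to -0.39), and also after median centring (-0.51). SMC5-DT lost its combination call without any 1 of vehicle 1, combination 1, vehicle 2 and combination 2 (-0.47 to -0.40). SMC1B lost its combination call without any 1 of vehicle 1, combination 1, vehicle 2, vehicle 3 and combination 3 (-0.42 to -0.30), and also without vehicle 1 and panobinostat 1 together (-0.40).

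Mitotic kinesins fell in part, and spindle and cytokinesis genes were called in both directions. Of the 13 mitotic kinesins, 6 were lower and 0 higher with panobinostat, 8 lower and 0 higher with the combination, and 2 lower and 0 higher with JQ1. Of all genes 14.8% were lower with panobinostat, 19.5% with the combination and 9.47% with JQ1. The first 2 counts were above these shares, and the JQ1 count is too few to set apart. Of the 4 spindle and cytokinesis genes, 2 were lower and 0 higher with panobinostat. With the combination 1 was lower and 1 higher, and with JQ1 0 and 1. These 4 genes are too few to set apart from the shares of all genes. KIF15 (cluster 16939960), a motor that backs up KIF11 in keeping spindle poles apart, read 9.56, 9.48 and 9.51 with vehicle, 9.55, 9.60 and 9.50 with JQ1, 8.87, 8.98 and 8.79 with panobinostat and 8.76, 8.79 and 8.75 with the combination. JQ1 and vehicle arrays overlapped, and the arrays with panobinostat lay below both. KIF15 changed by -0.64 ± 0.07 (adjusted p = 3.33e-05) with panobinostat and -0.75 ± 0.07 (adjusted p = 3.31e-06) with the combination, against 0.03 with JQ1 (adjusted p = 0.818; 95% interval -0.11 to 0.18). KIF22 (cluster 16817647), a chromokinesin that pushes chromosome arms, read 10.13, 10.27 and 10.12 with vehicle, 9.99, 10.07 and 9.98 with JQ1, 9.93, 9.84 and 9.84 with panobinostat and 9.47, 9.44 and 9.52 with the combination. The combination arrays lay below those of either compound, and the change was -0.16 ± 0.07 (adjusted p = 0.127), -0.30 ± 0.07 and -0.70 ± 0.07. The cytokinesis motors KIF20A (-0.58 and -0.61) and KIF23 (-0.32 and -0.40), the chromokinesin KIF4A (-0.31 and -0.44) and KIF18B (-0.51 and -0.52), a motor of microtubule plus ends, were lower with panobinostat and with the combination. KIF11 (-0.06, adjusted p = 0.453), the plus-end motor that separates spindle poles, and KIF2C (-0.08, adjusted p = 0.416), a microtubule depolymerase, were not called. KIF4B, a retrocopy that shares sequence with KIF4A, was at -0.42 ± 0.08 with the combination, and its signal may include KIF4A transcript. KIF23 lost its panobinostat call without vehicle 1 and panobinostat 1 together (-0.25).

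KIF14 (cluster 16697695), a cytokinesis motor, showed the deepest fall with JQ1 of the 101 members. It read 10.61, 10.63 and 10.50 with vehicle, 9.85, 9.80 and 9.84 with JQ1, 10.49, 10.55 and 10.50 with panobinostat and 10.07, 10.14 and 10.17 with the combination. JQ1 arrays were lowest, panobinostat and vehicle arrays overlapped, and combination arrays lay between. KIF14 changed by -0.75 ± 0.06 (adjusted p = 1.85e-05) with JQ1, -0.07 with panobinostat (adjusted p = 0.480) and -0.46 ± 0.06 (adjusted p = 0.000102) with the combination, and combination arrays exceeded JQ1 arrays by 0.30 ± 0.06 (adjusted p = 0.00434). PRC1 (cluster 16813342), which crosslinks midzone microtubules for cytokinesis, read 11.08, 11.07 and 11.06 with vehicle, 10.98, 10.94 and 10.83 with JQ1, 10.60, 10.78 and 10.63 with panobinostat and 10.42, 10.45 and 10.45 with the combination. The groups stood in the order vehicle, JQ1, panobinostat, combination without overlap, at -0.40 ± 0.07 with panobinostat and -0.63 ± 0.07 (adjusted p = 1.57e-05) with the combination; the JQ1 value of -0.16 did not pass (adjusted p = 0.151). CKAP2 (cluster 16775014), a microtubule stabiliser, read 9.78, 9.72 and 9.56 with vehicle, 10.16, 10.17 and 10.01 with JQ1, 9.72, 9.79 and 9.63 with panobinostat and 9.78, 10.07 and 10.03 with the combination. JQ1 arrays lay above vehicle and panobinostat arrays, which overlapped. CKAP2 changed by 0.43 ± 0.09 (adjusted p = 0.00854), 0.03 (adjusted p = 0.874) and 0.27 ± 0.09 (adjusted p = 0.0392), with overlap of combination and vehicle arrays. CKAP5, the microtubule polymerase chTOG, was at 0.01 with the combination (adjusted p = 0.894; 95% interval -0.11 to 0.14). CKAP2L was lower with panobinostat (-0.29 ± 0.08, adjusted p = 0.0176), a call that did not pass in every fit with 1 array left out. With the combination CKAP2L was at -0.12 (adjusted p = 0.300). CKAP2 lost its combination call without any 1 of JQ1 1, vehicle 2, combination 2, vehicle 3 and combination 3 (0.21 to 0.29), and also after median centring or with these groups fitted alone (0.24 to 0.27).

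**Figure D3:**
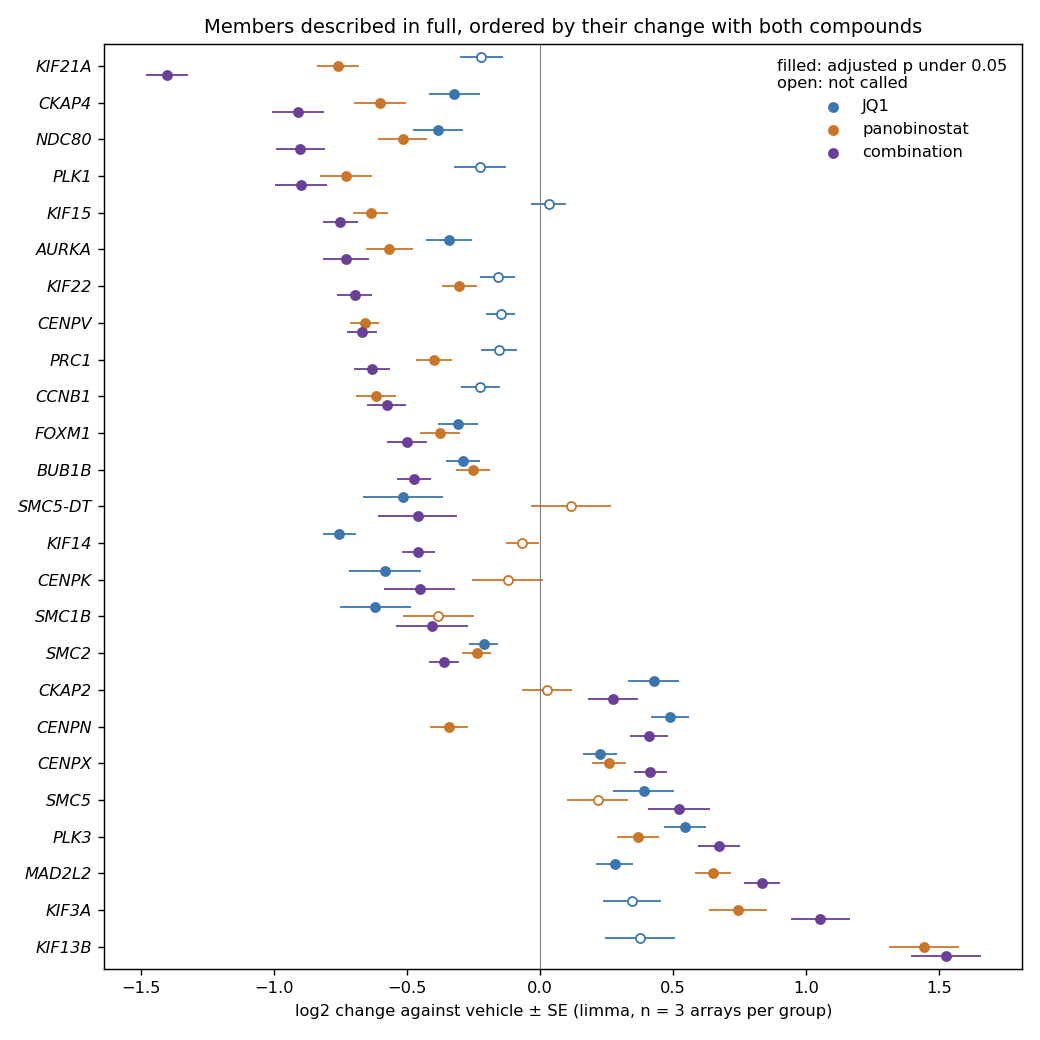
Log2 change against vehicle ± SE (x axis, limma, n = 3 arrays per group) of 25 members (y axis, ordered by the combination) with JQ1, panobinostat and the combination; filled points passed an adjusted p under 0.05 and open points did not. KIF21A (-1.40) and KIF13B (1.52) stand at the ends with the combination, and CENPN is above 0 with JQ1 and below 0 with panobinostat.

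The 27 other kinesins, most of them motors of interphase transport, held the widest changes and went both ways. With panobinostat 7 were higher and 6 lower, with the combination 9 and 6, and with JQ1 1 and 3. Of all genes 14.5% were higher and 14.8% lower with panobinostat, 18.2% and 19.5% with the combination, and 8.18% and 9.47% with JQ1. The counts called higher with panobinostat and the combination were above these shares, and those called lower lay closer to them. The JQ1 counts are too few to set apart. KIF13B (cluster 17075922), a plus-end transport motor, read 8.50, 8.10 and 8.36 with vehicle, 8.84, 8.58 and 8.66 with JQ1, 9.53, 9.81 and 9.96 with panobinostat and 9.73, 9.80 and 10.00 with the combination. The 6 arrays with panobinostat lay above the 6 without, and panobinostat and combination arrays overlapped. KIF13B rose 2.72-fold with panobinostat (1.44 ± 0.13, adjusted p = 1.38e-05) and 2.88-fold with the combination (1.52 ± 0.13, adjusted p = 2.95e-06), and was at 0.37 with JQ1 (adjusted p = 0.0747). KIF21A (cluster 16763138), a neuronal kinesin that restrains microtubule growth, read 11.42, 11.45 and 11.29 with vehicle, 11.18, 11.21 and 11.11 with JQ1, 10.67, 10.67 and 10.54 with panobinostat and 9.84, 10.08 and 10.03 with the combination. The groups of KIF21A stood in steps without overlap, with the combination lowest. It changed by -0.22 with JQ1 (adjusted p = 0.0785), -0.76 ± 0.08 (adjusted p = 3.33e-05) with panobinostat and -1.40 ± 0.08 (adjusted p = 1.32e-07) with the combination, a 2.64-fold fall. KIF3A (cluster 16999817), a subunit of the kinesin that carries cargo along cilia, was singled out after its values were seen and read 9.05, 8.83 and 8.77 with vehicle, 9.32, 9.17 and 9.19 with JQ1, 9.41, 9.81 and 9.66 with panobinostat and 9.82, 9.97 and 10.02 with the combination. Its groups did not overlap and stood in the order vehicle, JQ1, panobinostat, combination. KIF3A rose by 0.74 with panobinostat and 1.05 with the combination, beside its partner KIF3B (0.33 and 0.32), whereas KIF3C, the alternative partner, was lower with the combination (-0.44). KIF6 and KIF9, kinesins of motile cilia whose clusters lay at the 19.7 and 26.0 percentile of mean signal, were higher with the combination (0.82 and 0.76). KIF13A (-0.96), an endosome motor, KIF26B (-0.88), an atypical kinesin, and KIF2A (-0.50), a depolymerase, were lower. The conventional kinesins KIF5B (-0.07) and KIF5C (0.01) were not called with the combination (adjusted p = 0.380 and 0.913), and KIF1A, which carries synaptic vesicle precursors, was higher at 0.35 ± 0.09 (adjusted p = 0.00937). CKAP4 (cluster 16769585) read 7.26, 7.40 and 7.27 with vehicle, 7.06, 6.96 and 6.95 with JQ1, 6.72, 6.61 and 6.80 with panobinostat and 6.40, 6.59 and 6.20 with the combination. Its treated arrays lay below vehicle, and it changed by -0.32 ± 0.10 (adjusted p = 0.0404) with JQ1, -0.60 ± 0.10 (adjusted p = 0.000650) with panobinostat and -0.91 ± 0.10 (adjusted p = 1.51e-05) with the combination. CKAP4 lost its JQ1 call without any 1 of vehicle 1, JQ1 1, panobinostat 1, combination 1, vehicle 2, JQ1 2, vehicle 3 and JQ1 3 (-0.36 to -0.28), and also after median centring, after quantile normalization or without vehicle 1 and panobinostat 1 together (-0.35 to -0.30). KIF1B and KIF27 had further clusters, and for KIF27 only the brightest of 3 clusters passed with the combination (0.55, adjusted p = 0.0344). KIF27 lost its combination call without any 1 of vehicle 2, combination 2, vehicle 3 and combination 3 (0.44 to 0.48), and also after median centring or with these groups fitted alone (0.52 to 0.55).

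**Figure D4:**
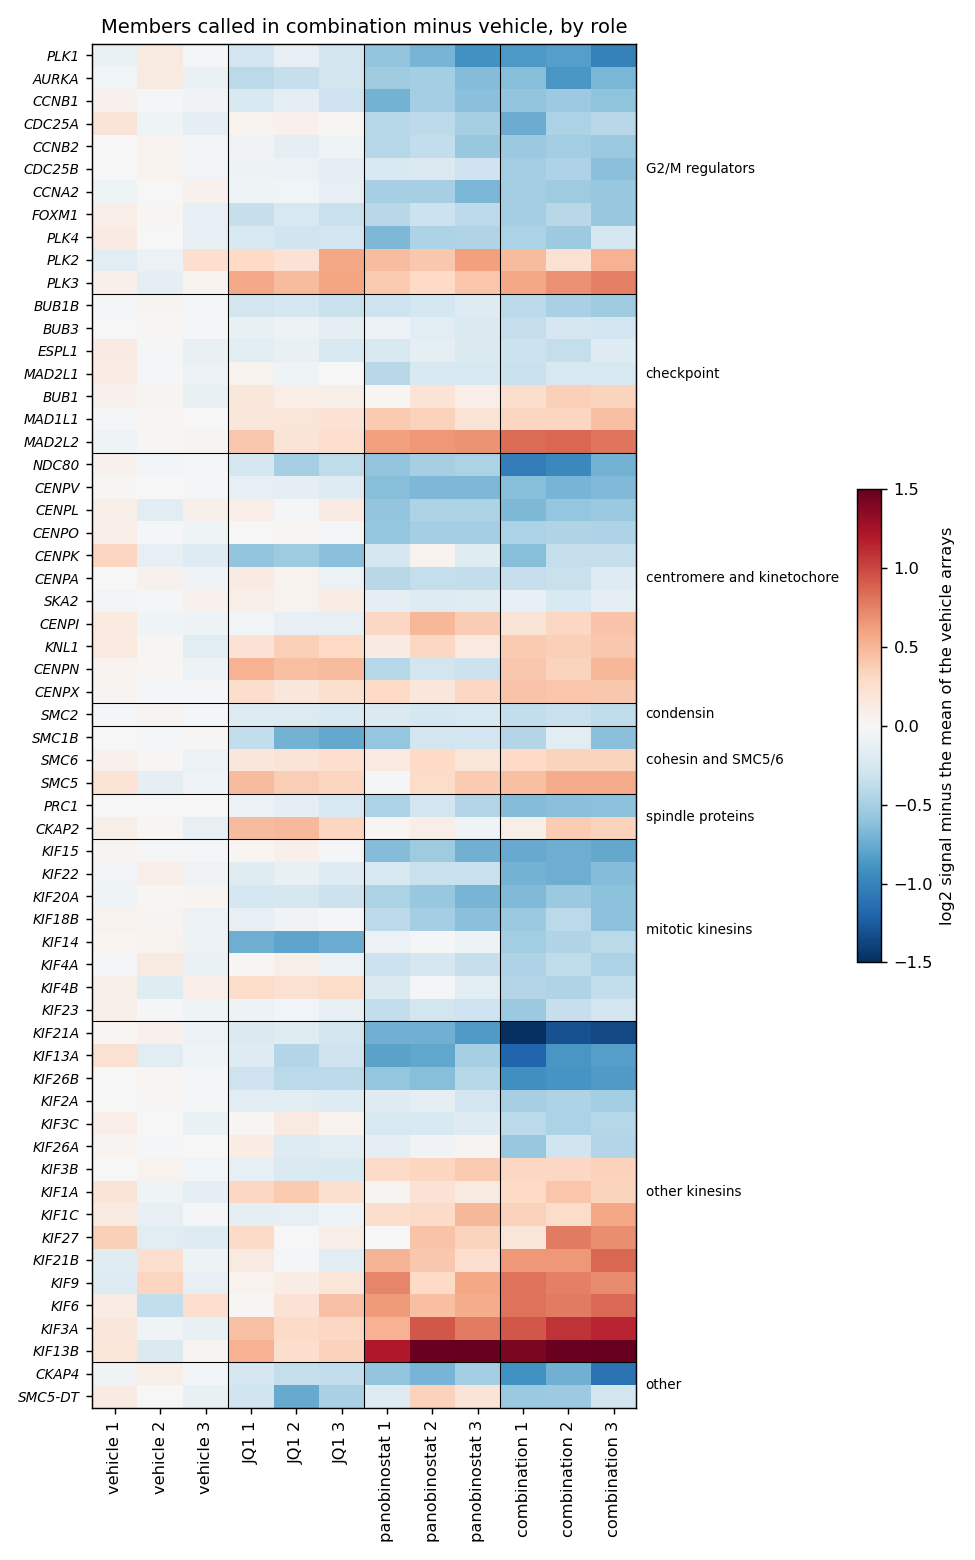
Log2 signal minus the mean of the vehicle arrays (colour, cut at 1.5 on each side) for the 60 members called in combination against vehicle (rows, by role) on the 12 arrays (columns). The 39 lower members are blue and the 21 higher members red on combination arrays, while vehicle arrays scatter around 0 by construction.

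Since genes of this class share promoter elements, the RefSeq promoter windows (GRCh38.p14, 250 bases before to 50 after the start site) were searched for the CHR, read as TTTGAA on either strand, and for the CCAAT box, read as CCAAT on either strand. A window was found for 85 of the 101 members, with the first listed window used for the 18 that had several, and no CHR match overlapped a CCAAT match in any member. The markers AURKA and FOXM1 had no window. Among members called with the combination, the CHR letters stood in 17 of 34 windows of lower members and 1 of 17 of higher ones. They also stood in 13 of 34 windows of members not called. The windows shown were picked by hand and do not stand for these shares. They are of markers or members described above that fell (PLK1, CCNB1, CCNB2, NDC80, KIF15 and PRC1) and a pair that rose (MAD2L2 and KIF3A). Each runs 5′ to 3′, with the CHR and CCAAT letters on either strand in capitals.
PLK1, chr16:23678639-23678938, plus strand: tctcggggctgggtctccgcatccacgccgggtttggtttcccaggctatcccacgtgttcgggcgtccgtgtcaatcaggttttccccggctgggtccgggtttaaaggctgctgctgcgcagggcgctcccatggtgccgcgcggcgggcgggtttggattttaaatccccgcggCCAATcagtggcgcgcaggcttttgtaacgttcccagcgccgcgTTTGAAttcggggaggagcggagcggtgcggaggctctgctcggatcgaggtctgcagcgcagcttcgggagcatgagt
CCNB1, chr5:69166900-69167199, plus strand: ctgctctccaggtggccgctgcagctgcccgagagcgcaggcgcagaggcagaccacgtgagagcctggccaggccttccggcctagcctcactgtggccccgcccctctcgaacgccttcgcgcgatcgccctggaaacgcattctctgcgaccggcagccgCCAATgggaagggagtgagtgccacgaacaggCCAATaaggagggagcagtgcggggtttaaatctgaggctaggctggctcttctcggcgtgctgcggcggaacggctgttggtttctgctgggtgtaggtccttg
CCNB2, chr15:59104896-59105195, plus strand: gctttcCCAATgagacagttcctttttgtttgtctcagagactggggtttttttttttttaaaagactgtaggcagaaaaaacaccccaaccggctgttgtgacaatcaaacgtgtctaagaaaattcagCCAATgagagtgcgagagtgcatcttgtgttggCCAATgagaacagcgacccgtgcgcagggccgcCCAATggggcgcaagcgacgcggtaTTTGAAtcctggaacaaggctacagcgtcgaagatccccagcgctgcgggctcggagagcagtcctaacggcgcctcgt
NDC80, chr18:2571307-2571606, plus strand: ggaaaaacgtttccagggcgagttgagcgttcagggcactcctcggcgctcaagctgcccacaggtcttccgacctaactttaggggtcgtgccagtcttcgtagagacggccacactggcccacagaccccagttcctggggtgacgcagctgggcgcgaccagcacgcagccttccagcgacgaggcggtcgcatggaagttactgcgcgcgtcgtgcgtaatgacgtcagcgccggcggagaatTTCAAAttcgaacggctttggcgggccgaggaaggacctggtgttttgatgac
KIF15, chr3:44761544-44761843, plus strand: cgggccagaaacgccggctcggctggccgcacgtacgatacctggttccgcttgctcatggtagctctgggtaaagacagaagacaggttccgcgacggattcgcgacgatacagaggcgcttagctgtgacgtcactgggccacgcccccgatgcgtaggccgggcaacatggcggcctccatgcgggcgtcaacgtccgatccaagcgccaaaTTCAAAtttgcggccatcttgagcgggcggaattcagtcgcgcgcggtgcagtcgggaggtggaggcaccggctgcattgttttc
PRC1, chr15:90994486-90994785, minus strand: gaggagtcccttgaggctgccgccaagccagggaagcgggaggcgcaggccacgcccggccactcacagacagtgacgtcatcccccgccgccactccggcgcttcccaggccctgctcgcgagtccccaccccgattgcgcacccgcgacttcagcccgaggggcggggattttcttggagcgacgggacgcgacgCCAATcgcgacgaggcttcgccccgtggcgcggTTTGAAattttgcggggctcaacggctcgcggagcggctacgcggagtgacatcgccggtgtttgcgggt
MAD2L2, chr1:11691510-11691809, minus strand: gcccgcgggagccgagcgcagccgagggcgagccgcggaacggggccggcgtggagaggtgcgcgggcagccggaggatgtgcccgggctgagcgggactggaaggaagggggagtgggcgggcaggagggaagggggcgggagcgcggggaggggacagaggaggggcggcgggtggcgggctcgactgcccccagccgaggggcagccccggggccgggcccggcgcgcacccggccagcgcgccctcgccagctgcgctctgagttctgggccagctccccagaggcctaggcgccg
KIF3A, chr5:132737497-132737796, minus strand: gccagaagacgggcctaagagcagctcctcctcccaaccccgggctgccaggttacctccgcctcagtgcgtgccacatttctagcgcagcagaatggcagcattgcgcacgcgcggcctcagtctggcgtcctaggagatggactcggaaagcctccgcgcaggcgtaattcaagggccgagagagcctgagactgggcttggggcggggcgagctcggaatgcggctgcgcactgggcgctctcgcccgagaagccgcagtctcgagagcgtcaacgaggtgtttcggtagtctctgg

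In PLK1 the CHR letters began 29 bases before the start site and the CCAAT box 73 bases before it, and in CCNB2 the CHR letters began 29 bases before it behind 4 CCAAT boxes. CCNB1 held 2 CCAAT boxes and no TTTGAA, NDC80 and KIF15 held the CHR letters without a CCAAT box, and MAD2L2 and KIF3A held neither. The CHR letters stood in 31 of 85 member windows (36.5%), against 11.8% of the 10749 windows of all genes tested. Among members with a mitotic or chromosomal role they stood in 30 of 62 (48.4%), and among the other kinesins in 1 of 21. The CCAAT box stood in 40 member windows (47.1%), against 36.0% of the windows of all genes tested.

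Members were then divided by these letters, which entered neither their choice nor the fit. With panobinostat, 19 of the 31 members with CHR letters were lower and 0 higher (median -0.29), while of the 54 without them 13 were lower and 13 higher (median 0.03). With the combination the numbers were 17 lower and 1 higher (median -0.29) against 17 and 16 (median 0.04). The higher member was CENPN. With JQ1 4 of 31 were lower and 1 higher, against 7 and 6 of 54. This division is mixed with role, since few other kinesins held the letters. Among members with a mitotic or chromosomal role, 18 of 30 with the letters were lower with panobinostat and 0 higher. Of the 32 without them 8 were lower and 8 higher. With the combination these numbers were 17 and 1 of 30 against 10 and 10 of 32. Over the 10749 tested genes that had a window, 15.9% of genes with the letters and 16.9% of genes without them were lower with panobinostat. The shares called higher were 12.3% and 16.0%. With the combination 22% and 22% of these genes were lower and 14.9% and 20.7% higher. Calls higher were thus also a smaller share of the genes with the letters. If any listed window of a gene counted, 19 of 33 members with the letters were lower with panobinostat and 1 higher, the latter being CDC25C. These counts are a description of letters in a window, not of bound sites, and were not tested. Spellings of the CHR other than TTTGAA were not searched, so members without these letters are not shown to lack the element.

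**Figure D5:**
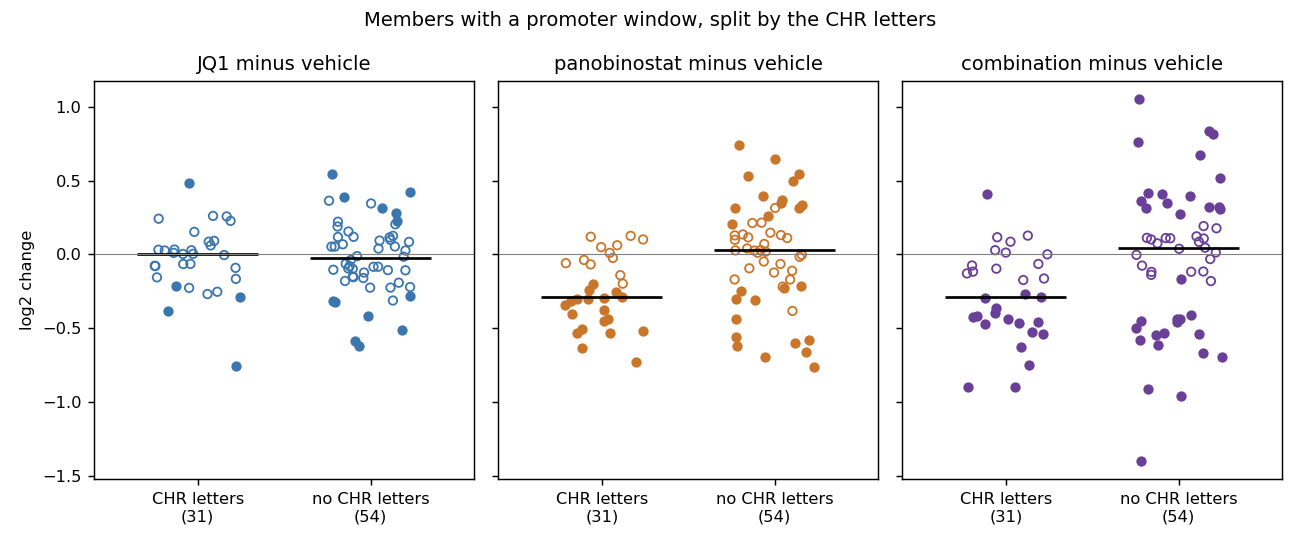
Log2 change against vehicle (y axis) of the 85 members with a promoter window, divided into 31 with and 54 without the CHR letters (x axis), for JQ1, panobinostat and the combination; filled points passed an adjusted p under 0.05 in limma and the bar is the median. With panobinostat the group with the letters has a median of -0.29 and no called rise.

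The combination was compared with each compound to show what the added compound changes, and panobinostat with JQ1 to compare the compounds directly. Against JQ1, 34 members were lower and 13 higher with the combination, where 13.9% of all genes were lower and 11.7% higher. PLK1 (-0.67 ± 0.10), KIF15 (-0.78 ± 0.07), CENPL (-0.67 ± 0.08) and CDC25A (-0.58 ± 0.10) were among the lower members. Against panobinostat, 12 were lower and 4 higher, where 8.55% and 6.13% of all genes were. The 6 of these calls that passed with each array left out in turn were CENPN (0.75 ± 0.07), higher, and KIF21A (-0.64 ± 0.08), KIF22 (-0.39 ± 0.07), KIF14 (-0.39 ± 0.06), KIF26B (-0.33 ± 0.07) and KIF2A (-0.28 ± 0.06), lower. PLK1 (-0.17, 95% interval -0.38 to 0.04) and CCNB1 (0.04, -0.12 to 0.20) did not pass (adjusted p = 0.298 and 0.792). The combination count of 16 against panobinostat was 8 without panobinostat 2, 10 without panobinostat 3, 9 without combination 2 and 8 without combination 3. After median centring it was 1 higher and 6 lower. Panobinostat differed from JQ1 in 29 lower and 16 higher members, against 11.6% of all genes in each direction, and in 29 lower and 9 higher after median centring. PLK1 (-0.50 ± 0.10, adjusted p = 0.00303) and CCNB1 (-0.39 ± 0.07, adjusted p = 0.00251) were lower with panobinostat than with JQ1, KIF14 (0.69 ± 0.06, adjusted p = 2.98e-05) was higher, and AURKA (-0.22, adjusted p = 0.0886) and FOXM1 (-0.07, adjusted p = 0.573) did not pass. These comparisons share arrays with one another and with those against vehicle.

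The interaction, which is 0 where the changes with each compound add up on the log2 scale to that with both, was called in limma for 0 of 101 members, against 0.759% of all genes. At an unadjusted p under 0.05 there were 15 of 101 members and 2037 of 14884 genes, which are like shares. Quantile normalization gave 5 calls, a fit without dim genes 2 and a fit without vehicle 1 gave 1. The interaction was 0.06 ± 0.14 for PLK1 (95% interval -0.25 to 0.36), 0.27 ± 0.10 for CCNB1 (0.04 to 0.49) and 0.18 ± 0.12 for AURKA (-0.09 to 0.45), none of which passed (adjusted p = 0.913, 0.275 and 0.585). The lowest adjusted p-values were those of KIF4B (-0.54 ± 0.12, adjusted p = 0.0671), KIF12 (0.53 ± 0.12, adjusted p = 0.0696) and KIF14 (0.36 ± 0.09, adjusted p = 0.0914).

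A list of 78 symbols of other mitotic genes, of which 58 were measured, was counted in the same way. With the combination 31 were lower and 6 higher (median -0.24), with panobinostat 20 and 5 (median -0.11), and with JQ1 11 and 3 (median -0.06). Of all genes 19.5% were lower and 18.2% higher with the combination, 14.8% and 14.5% with panobinostat, and 9.47% and 8.18% with JQ1. In each comparison the listed genes were above the share called lower. They were below the share called higher with the combination and panobinostat, and the JQ1 count called higher is too few to set apart. The 3 deepest falls with the combination were LIN9, a subunit of MuvB, at -1.61 ± 0.08 (adjusted p = 6.08e-08), STAG2, a cohesin subunit, at -1.51 ± 0.07 (adjusted p = 3.56e-08), and DEPDC1 at -1.30 ± 0.08 (adjusted p = 1.73e-07). The 3 highest were LIN37, another MuvB subunit, at 1.08 ± 0.07 (adjusted p = 2.56e-07), CDCA2, which brings a phosphatase to chromatin, at 0.66 ± 0.07 (adjusted p = 2.37e-05), and NEK2, a centrosomal kinase, at 0.48 ± 0.10 (adjusted p = 0.00289). LIN9 was at -0.58 with JQ1 and -1.07 with panobinostat, and LIN37 at 0.33 and 0.64, so these subunits of 1 complex moved to opposite sides under each treatment. LIN54, the MuvB subunit that contacts the CHR and was singled out after its values were seen, was at 0.37 ± 0.11 (adjusted p = 0.0193) with the combination, a call lost without vehicle 3 (0.28) or after median centring (0.33).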

How the data were processed

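RNA from 12 samples of SK-N-BE(2) cells, 3 in each of 4 groups, was measured on 1-colour Affymetrix Human Gene 2.0 ST arrays. The deposited table holds the authors' processed values, 1 per transcript cluster and array, taken here as log2 signal from their range of 1.39 to 14.10. MAS5 and affy appear in the submitters' processing notes, with no version or role, and how the arrays were corrected and scaled, and on which genome build, is not given in the sources used here. The values were used as deposited. Of 53617 clusters, 16098 carried a gene symbol in the platform annotation, and each of the 14884 genes was represented by the cluster with the highest mean. This choice can change a level for the 779 genes with more than 1 cluster.

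One limma model (version 3.58.1 in R 4.3.3) with a mean for each group was fitted to all 14884 genes and 12 arrays, which left 8 residual degrees of freedom, and 7 contrasts were read from it. P-values were adjusted by Benjamini-Hochberg over all genes of a contrast, and calls were made at 0.05. The number of arrays limits the precision, and an exact permutation test of 3 against 3 cannot go below 0.10. The script was tested on simulated data. Described with every array value were the 5 marker genes, in each role the 2 called members with the largest change with the combination and the called member with the largest opposite change, and the 3 called members with the largest change with JQ1. From the list of other mitotic genes the 3 called lowest and 3 called highest were named. CENPN, KIF3A and LIN54 were added after their values were seen. The members, roles and lists were chosen with earlier results of these data known. Promoter windows were those of RefSeq (GRCh38.p14), matched by Entrez gene identifier. Alternatives were median centring, quantile normalization, a filter that drops genes whose mean signal is under percentile 40, averaging the clusters of a gene, replicate number as a block, fitting only the groups compared, leaving out each array in turn and, chosen after seeing the data, leaving out vehicle 1 and panobinostat 1 together.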

Additional observations from a re-analysis of the deposited data

How the results depend on the processing

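Panobinostat and combination counts against vehicle moved least in proportion, of the counts above 0, with 1 array left out or a replicate block. With each array left out in turn, members called ranged from 47 to 53 with panobinostat, 53 to 60 with the combination, 38 to 46 for the combination against JQ1 and 35 to 46 for panobinostat against JQ1. The JQ1 count of 22 ranged from 12 to 23 and was 14 after median centring, 13 when only JQ1 and vehicle arrays were fitted and 34 without dim genes, where fewer genes were tested. The combination count of 16 against panobinostat ranged from 8 to 17, and was 7 after median centring, 7 when only these groups were fitted and 10 with replicate number as a block. The interaction count of 0 was 5 after quantile normalization, 2 without dim genes and 0 to 1 with each array left out. The causes of the other moves were not tested.

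Replicate numbers did not pair the arrays: same-numbered arrays of different groups deviated with correlations of -0.693 to 0.236 over 18 pairs, and 0 of 12 arrays correlated best with their own number. With the replicate block the counts were 15 with JQ1, 48 with panobinostat, 56 with the combination, 40 for the combination against JQ1, 39 for panobinostat against JQ1 and 0 for the interaction.

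CENPK with panobinostat, not called, ran from -0.218 to 0.0358 with each array left out in turn, turning sign without vehicle 1, and was 0.0988 without vehicle 1 and panobinostat 1 together. CKAP2 with panobinostat, not called, ran from -0.0351 to 0.0726 and was -0.0269 after median centring. Interaction values near 0 also turned sign with 1 array left out, none of them called: PLK1 ran from -0.0294 to 0.124, NDC80 from -0.0978 to 0.0664, CKAP4 from -0.0860 to 0.111, SMC5-DT from -0.213 to 0.0522, SMC5 from -0.205 to 0.0077 and KIF3A from -0.145 to 0.0565. The NDC80 interaction was 0.0101 after median centring, and that of CKAP4 was -0.00164 after quantile normalization. Without detection calls, the signal over background of dim members such as SMC1B is unknown.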
